A study of Mus musculus with 11 samples.

Results

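Transcripts of 9 genes that mark plasmacytoid dendritic cells were followed in dendritic cells sorted from mouse spleen: Siglech, Pacsin1, Klk1, Cox6a2, Atp1b1, Smim5, Bst2, Ly6d and Mctp2. Each gene was read from the probeset that names it and no other gene. All 9 were measured, by 1 probeset each, among 22180 genes in all. There were 11 arrays. The naive group held 6 arrays from C57BL/6 mice, and the exposed group held 5 arrays from C57BL/6 mice that carried transferred Eµ-Myc lymphoma, a B cell lymphoma driven by a Myc transgene under an immunoglobulin heavy chain enhancer. Cells were sorted from both groups as CD11c+ and MHC class II+, to a purity above 95% per the labels, and the tumour load of the lymphoma spleens averaged 10 to 36% of lymphocytes. The labels give no age or sex for the mice. They also do not say whether an array is 1 mouse or a pool, so every p-value measures the spread between these arrays only.

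Plasmacytoid dendritic cells detect viral nucleic acid through endosomal Toll-like receptors and release large amounts of type I interferon. Their identity depends on the E protein TCF4, which binds short DNA motifs called E-boxes, and is opposed by ID2, which blocks E proteins. They carry less CD11c and less MHC class II than conventional dendritic cells, so a sort on both proteins takes mainly conventional dendritic cells and only part of the plasmacytoid ones. In tumours they are known for reduced interferon release.

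Levels are log2 expression, so a difference of 1 is a doubling, and differences are exposed minus naive. The mean level of a gene counted as above the dim mark where it passed 5.61, the 95th percentile of 1101 olfactory receptor genes that dendritic cells are not known to use. Of the 9 markers, 8 were above this mark, as were 12610 of all 22180 genes. Mctp2 was not, with 2 of 11 arrays above it, and Smim5 was above it on 8 of 11 arrays. A gene passed the test where its limma p, adjusted by Benjamini and Hochberg across the 22180 genes, was under 0.05.

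Of the 9 markers, 1 rose in exposed cells (Smim5), 0 fell and 8 did not pass the test. Over all genes 316 passed, which is 1.42%, with 0.879% higher and 0.546% lower. At an unadjusted p under 0.05 there were 2 of the 9 markers, Smim5 and Klk1, against 12.2% of all genes. The difference was above 0 for 8 of the 9 markers, Siglech being the exception, and the median difference was 0.21 (range -0.10 to 0.80), beside 0.0082 and 53.5% above 0 over all genes. That median rests partly on exposed arrays 1 and 2: it was 0.12 without exposed array 1 and 0.081 without exposed array 2. The markers vary together between arrays, as described further on, so the 8 are not independent of each other. In bulk samples a different number of plasmacytoid cells and a different amount of RNA per cell cannot be told apart.

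The 250 bases before the annotated start were searched for E-box letters, since TCF4 binds E-boxes. The forms were CACCTG or CAGGTG (the same site on either strand), and CAGCTG. The interferon response core GAAANNGAAA was searched for on both strands. RefSeq promoters (GRCm38.p6) were given for 6 of the 9 markers. The first E-box form was in 4 of the 6 windows, beside 17.2% of 32851 windows of the same length. CAGCTG was in 1 of 6, beside 13.0%, and the interferon core in 1 of 6, beside 2.98%. The 4 windows with a match are printed 5′ to 3′ on the strand of the gene, with the matched letters in capitals. In Klk1 (chr7:44225110-44225359, plus strand) the E-box began 87 bases before the start, and in Siglech (chr7:55767934-55768183, plus strand) 20 bases. In Mctp2 (chr7:72306596-72306845, minus strand) CACCTG began at 150 and CAGCTG at 131 bases. In Bst2 (chr8:71537473-71537722, minus strand) CAGGTG began at 205 bases, and the interferon core matched at 130 (GAAAATGAAA) and again, overlapping it, at 124 (GAAACTGAAA) bases. The windows of Atp1b1 and Pacsin1 held none of these letters. A match is a run of letters and no measure of binding.
Siglech: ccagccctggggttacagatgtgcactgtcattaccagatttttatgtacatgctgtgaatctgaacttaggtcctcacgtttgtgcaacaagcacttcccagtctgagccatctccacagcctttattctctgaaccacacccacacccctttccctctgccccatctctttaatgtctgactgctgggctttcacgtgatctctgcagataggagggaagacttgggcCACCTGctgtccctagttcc
Klk1: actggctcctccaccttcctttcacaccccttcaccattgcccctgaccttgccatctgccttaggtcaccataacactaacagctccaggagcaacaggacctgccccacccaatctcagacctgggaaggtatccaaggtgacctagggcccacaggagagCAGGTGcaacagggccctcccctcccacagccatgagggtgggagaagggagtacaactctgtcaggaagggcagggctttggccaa
Bst2: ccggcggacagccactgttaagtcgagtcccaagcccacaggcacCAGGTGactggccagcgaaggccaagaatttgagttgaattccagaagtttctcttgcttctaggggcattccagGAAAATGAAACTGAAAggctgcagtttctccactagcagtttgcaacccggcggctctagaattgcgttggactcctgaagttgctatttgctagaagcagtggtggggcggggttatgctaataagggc
Mctp2: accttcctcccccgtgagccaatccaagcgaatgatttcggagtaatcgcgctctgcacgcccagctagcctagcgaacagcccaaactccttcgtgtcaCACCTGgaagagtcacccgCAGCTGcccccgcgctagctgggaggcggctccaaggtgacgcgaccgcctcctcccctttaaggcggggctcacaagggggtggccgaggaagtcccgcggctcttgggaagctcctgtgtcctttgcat

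Smim5 encodes a small integral membrane protein whose function is little known. Its naive arrays ran from 5.36 to 5.77 with a median of 5.63. The exposed arrays gave 5.92, 6.05, 6.07, 6.02 and 5.93, so every exposed array lay above every naive one. This was the case for 1 of the 9 markers and for 1.42% of all genes. The mean was 5.61 ± 0.17 (SD, n = 6) in the naive group and 6.00 ± 0.07 (SD, n = 5) in the exposed group, a rise of 0.39 ± 0.08 (SE; 95% limits 0.22 to 0.57; limma adjusted p = 0.0304). The naive mean was at the dim mark, with 3 of 6 naive arrays below it and 5 of 5 exposed arrays above it, so Smim5 counted as above the mark through the exposed group and no fold is given. The call is near the threshold: with 1 array left out the difference stayed between 0.34 and 0.42, but the adjusted p passed 0.05 in 6 of 11 such fits, without naive array 1 (0.0705), 3 (0.0743) or 5 (0.0577) or exposed array 2 (0.0898), 3 (0.0761) or 4 (0.0642).

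**Figure D1:**
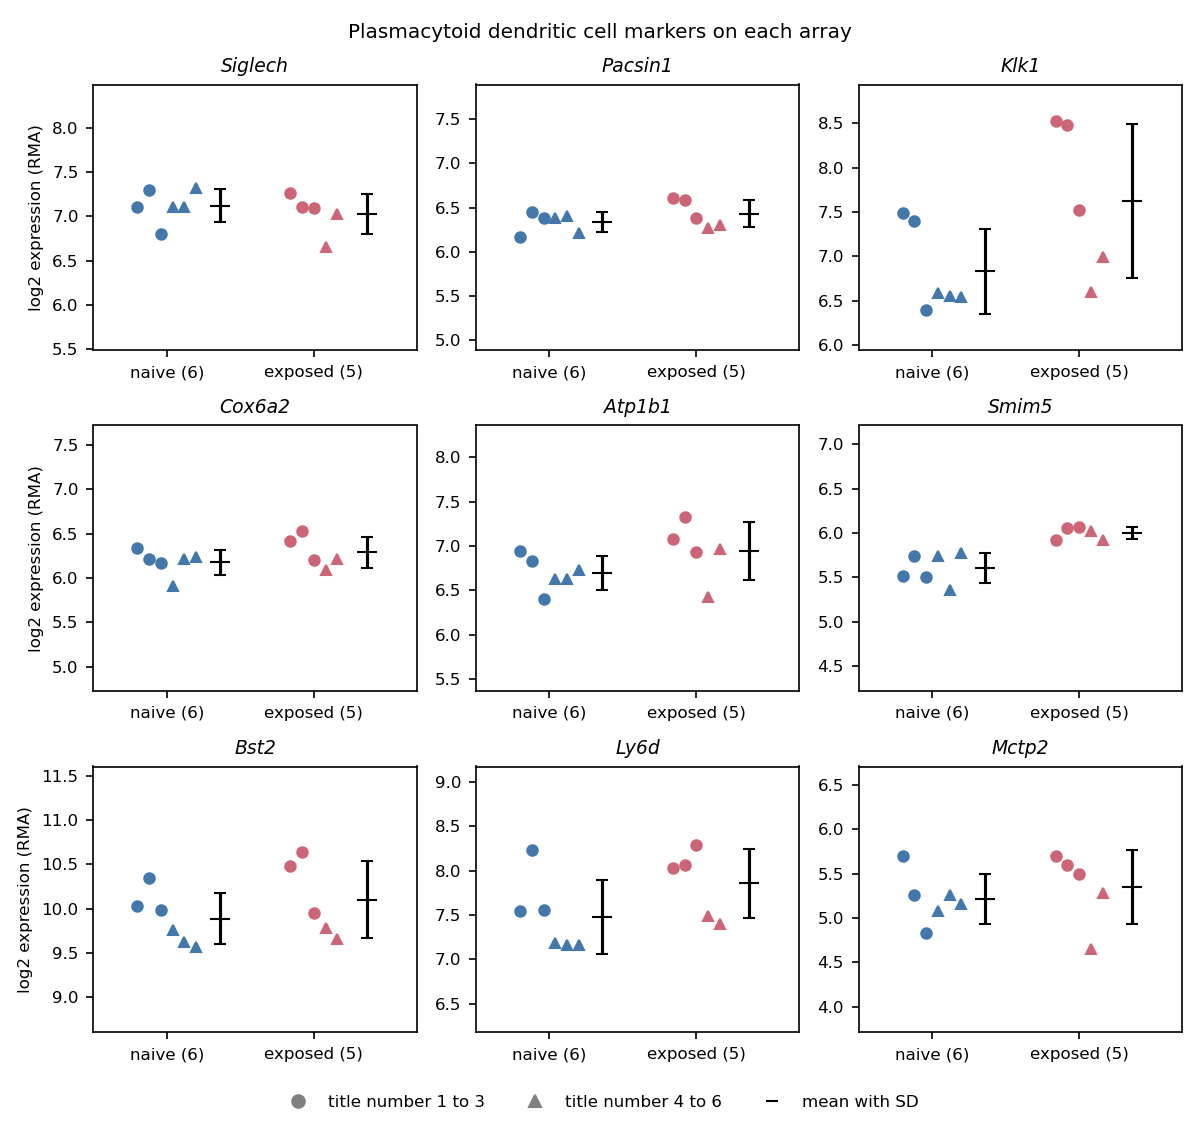
Log2 expression (RMA) of the 9 plasmacytoid dendritic cell markers on 6 naive (blue) and 5 lymphoma-exposed (red) arrays; circles are arrays with title numbers 1 to 3, triangles those numbered 4 to 6, and the bars show the mean with the SD. Every panel spans the same number of log2 units. For Smim5 the exposed arrays (5.92 to 6.07) all lie above the naive ones (5.36 to 5.77), and for the other 8 markers the groups overlap.

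Siglech encodes an endocytic lectin receptor of the plasmacytoid cell surface that signals through the adaptor DAP12 and dampens interferon release. It is among the most specific plasmacytoid markers in mouse spleen, and it did not pass the test. Naive arrays ran from 6.80 to 7.32 with a median of 7.10, and exposed arrays gave 7.26, 7.10, 7.09, 6.65 and 7.02. The groups overlap over nearly their whole range, with exposed array 4 the lowest of the 11. The mean was 7.12 ± 0.19 (SD, n = 6) in the naive group and 7.02 ± 0.23 (SD, n = 5) in the exposed group, which gives -0.10 ± 0.11 (SE; 95% limits -0.33 to 0.14; limma adjusted p = 0.808). The upper limit corresponds to a 1.10-fold higher and the lower to a 0.793-fold level in exposed cells.

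Bst2 encodes tetherin, the antigen of the antibody PDCA-1 used to sort plasmacytoid cells in naive mice, and interferon raises it in other cells as well. Naive arrays ran from 9.57 to 10.35 with a median of 9.87, and exposed arrays gave 10.48, 10.64, 9.95, 9.78 and 9.66. Exposed arrays 1 and 2 were above all naive arrays and the other 3 were within the naive range. The mean was 9.89 ± 0.29 (SD, n = 6) and 10.10 ± 0.43 (SD, n = 5), a difference of 0.21 ± 0.18 (SE; 95% limits -0.18 to 0.61; limma adjusted p = 0.723).

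Ly6d, a lipid-anchored surface protein found on B lineage and plasmacytoid precursors, ran from 7.16 to 8.23 in naive arrays with a median of 7.37. The exposed arrays gave 8.03, 8.07, 8.29, 7.49 and 7.39. Only exposed array 3 exceeded the highest naive array, naive 2, which lay far above the other 5 naive arrays. The mean was 7.47 ± 0.42 (SD, n = 6) and 7.86 ± 0.39 (SD, n = 5), a difference of 0.38 ± 0.21 (SE; 95% limits -0.06 to 0.82; limma adjusted p = 0.504). Of the 9 measured B cell markers, which lymphoma cells could also carry, 0 rose and 1 fell (Cd22, -0.54, limma adjusted p = 0.0238). Cd79a gave 0.36 (adjusted p = 0.452) and Cd79b 0.29 (adjusted p = 0.115). Of the 9 differences 5 were above 0, with a median of 0.0054. An unadjusted limma p under 0.05 was found for 4 of the 9, beside 12.2% of all genes. The Cd22 call was lost in 6 of 11 fits with 1 array left out (without naive array 3, 4, 5 or 6 or exposed array 2 or 3; adjusted p up to 0.0743). The mean level of those 9 genes ran from 7.36 to 7.58 in naive and from 7.28 to 7.60 in exposed arrays.

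Klk1, tissue kallikrein, is a secreted serine protease. It had the largest difference and the widest spread of the 9. Naive arrays ran from 6.39 to 7.49 with a median of 6.57, and exposed arrays gave 8.53, 8.48, 7.52, 6.59 and 6.997. Exposed arrays 1, 2 and 3 lay above all naive arrays, while exposed arrays 4 and 6 lay within the naive range. The mean was 6.83 ± 0.48 (SD, n = 6) and 7.62 ± 0.87 (SD, n = 5). The difference of 0.80 ± 0.34 (SE; 95% limits 0.06 to 1.53), 1.74-fold, did not pass over all genes (unadjusted p = 0.0356, limma adjusted p = 0.354). Leaving out 1 array moved it between 0.57 (without exposed array 1) and 1.05 (without exposed array 4), with no fit past the threshold. Klk1 lies among the near-identical Klk1b genes, and probes can bind several of them, so its level is uncertain. Of the 10 measured Klk1b genes 0 passed the test and 0 had an unadjusted p under 0.05; their differences ran from -0.13 to 0.23, and 8 of the 10 were at or below the dim mark.

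Atp1b1, the beta subunit of the sodium-potassium pump, ran from 6.40 to 6.94 in naive arrays with a median of 6.68. The exposed arrays gave 7.08, 7.32, 6.94, 6.43 and 6.96; exposed arrays 1, 2 and 6 were above all naive arrays and array 4 was near the lowest. The difference was 0.25 ± 0.14 (SE; 95% limits -0.04 to 0.54; limma adjusted p = 0.512), from 6.70 ± 0.19 (SD, n = 6) to 6.95 ± 0.33 (SD, n = 5).

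The other markers gave smaller differences. Pacsin1, an adaptor of dynamin-driven endocytosis that plasmacytoid cells need for full interferon release, averaged 6.33 ± 0.11 (SD, n = 6) and 6.43 ± 0.15 (SD, n = 5), a difference of 0.09 ± 0.08 (SE; limma adjusted p = 0.717). Cox6a2, a subunit form of cytochrome c oxidase otherwise known from heart and muscle, averaged 6.18 ± 0.14 (SD, n = 6) and 6.29 ± 0.18 (SD, n = 5), a difference of 0.11 ± 0.09 (SE; limma adjusted p = 0.698). Mctp2, a calcium-binding membrane protein with C2 domains, averaged 5.21 ± 0.29 (SD, n = 6) and 5.35 ± 0.42 (SD, n = 5), a difference of 0.13 ± 0.18 (SE; limma adjusted p = 0.845). In each of these genes exposed arrays lay both within and above the naive range, and for Mctp2 also below it.

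**Figure D2:**
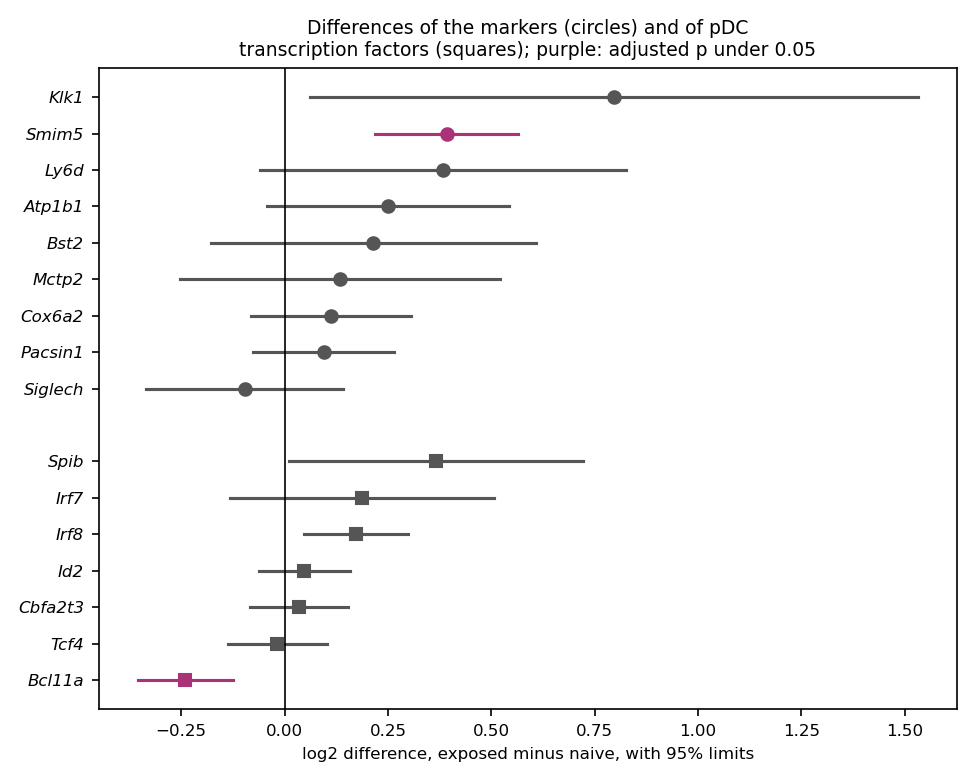
Log2 difference, exposed minus naive, of the 9 markers (circles) and of 7 transcription factor genes of plasmacytoid cells (squares), with 95% limits from limma; purple marks an adjusted p under 0.05. Smim5 (0.39) and Bcl11a (-0.24) are the 2 purple genes, and Klk1 (0.80) has the widest limits.

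The arrays fall into a pair of sets by the number in their titles, 1 to 3 (3 naive and 3 exposed) and 4 to 6 (3 naive and 2 exposed), which the labels do not explain. With the group as a term, 731 genes differed between the sets, 3.3% of all, and 2 of the 9 markers were among them. Bst2 averaged 10.24 in arrays 1 to 3 and 9.68 in arrays 4 to 6 (fitted difference 0.54, limma adjusted p = 0.0233). Ly6d averaged 7.95 and 7.28 (0.64, limma adjusted p = 0.0128), and all naive and exposed arrays numbered 1 to 3 were above all those numbered 4 to 6. Klk1 had the largest fitted difference, 0.91, which did not pass (limma adjusted p = 0.0626), and Smim5 gave -0.0031 (adjusted p = 0.989). In all, 8 of the 9 markers were higher in arrays 1 to 3.

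Within arrays 1 to 3 all 9 markers had a positive difference between exposed and naive, and within arrays 4 to 6 there were 6. Smim5 was close in both, 0.43 and 0.35. For Klk1 the differences were 1.08 and 0.23, and for Atp1b1 0.39 and 0.03. Siglech (0.09 and -0.34), Pacsin1 (0.19 and -0.04) and Mctp2 (0.34 and -0.20) changed sign. The test of the difference between the sets, a limma interaction term, passed for 0 of 22180 genes (943 at an unadjusted p under 0.05), and its lowest unadjusted p among the markers was 0.0535, for Siglech. With the number set as a block 2.78% of all genes and 1 of the 9 markers passed, again Smim5 (0.39, adjusted p = 0.0259).

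**Figure D3:**
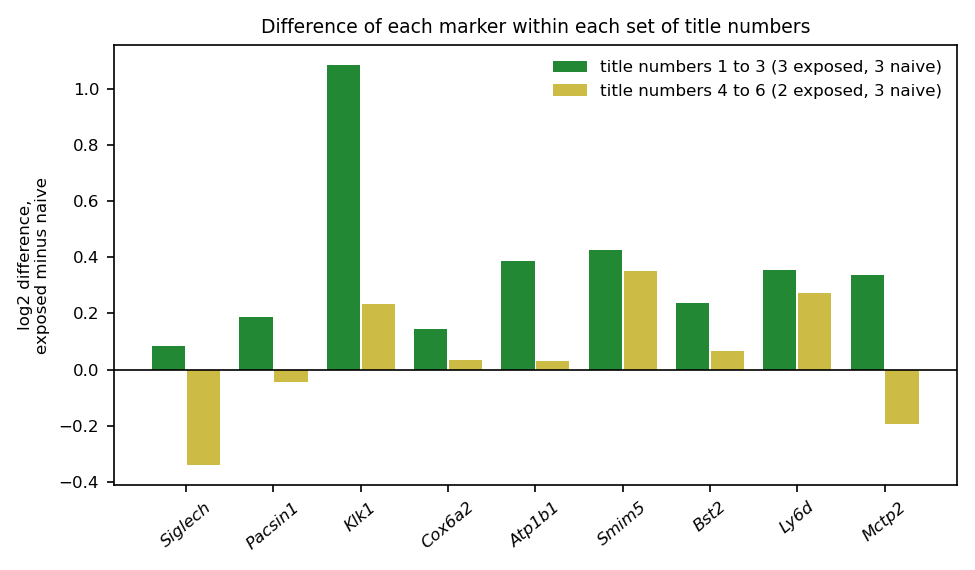
Log2 difference, exposed minus naive, of each marker within arrays numbered 1 to 3 (green, 3 exposed and 3 naive) and within arrays numbered 4 to 6 (yellow, 2 exposed and 3 naive); bars are differences of means, with no error drawn. The green bar is the higher for all 9 markers, from 1.08 against 0.23 for Klk1 to 0.43 against 0.35 for Smim5.

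With each group's mean removed, the markers other than Smim5 moved together from array to array. They also moved with macrophage and monocyte markers, as given further on, so this is not particular to the plasmacytoid list. The mean deviation of the 9 was highest on exposed array 2 (0.31), exposed array 1 and naive array 2 (both 0.27), and lowest on exposed array 4 (-0.40) and exposed array 6 (-0.21). As a description over 11 arrays, which share their number sets, the 28 pairs without Smim5 all correlated above 0, with a median Pearson r of 0.61. After the number set means were also removed the median was 0.33, and 23 of 28 were above 0. The closest pair was Atp1b1 and Mctp2 (r = 0.91, and 0.85 with the set means removed), then Klk1 and Bst2 (0.87 and 0.69). Bst2 and Ly6d, both different between the sets, went from 0.77 to 0.19. The 8 pairs with Smim5 had a median r of 0.08, from -0.23 to 0.30.

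**Figure D4:**
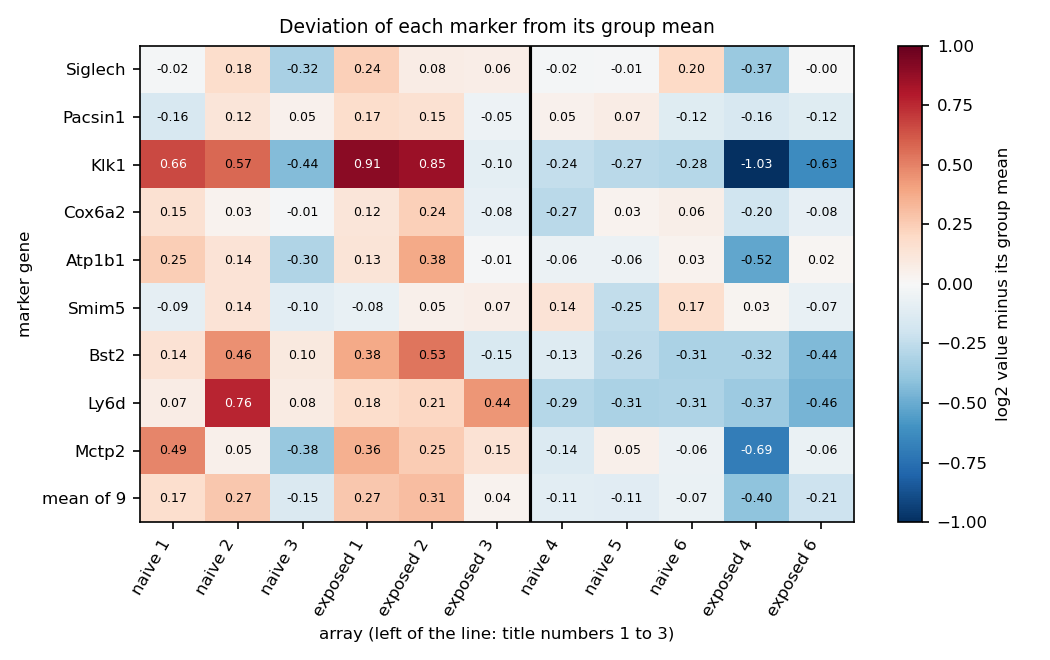
Deviation of each marker on each array from its own group mean, in log2 units (red above, blue below), with the mean over the 9 markers in the bottom row; arrays left of the line have title numbers 1 to 3. Klk1 ranges from 0.91 on exposed array 1 to -1.03 on exposed array 4, and the Smim5 row stays within -0.25 to 0.17.

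Markers of macrophages, monocytes and neutrophils were also high on exposed arrays 1 and 2, the arrays highest in the plasmacytoid markers. On exposed array 3 the plasmacytoid mean (7.10) was just above the highest naive array (7.09). Its red pulp macrophage, monocyte and neutrophil means were within the naive range, and its marginal zone macrophage mean (7.38) was above it. The mean of 10 red pulp macrophage markers ran from 8.16 to 9.29 in naive arrays and was 10.72, 9.71, 8.95, 8.78 and 8.74 in exposed arrays 1, 2, 3, 4 and 6. In the naive group the highest value was on array 2, which also had the highest mean of the 9 plasmacytoid markers (7.09). Of these 10 genes 0 passed the test, though 6 had an unadjusted limma p under 0.05, beside 12.2% of all genes. Their differences were above 0 for 9 genes, with a median of 0.69. The complement gene C1qb had the largest, 1.06 (limma adjusted p = 0.134), then C1qc with 0.96 (adjusted p = 0.268). The mean of 5 marginal zone macrophage markers ran from 6.36 to 7.10 in naive and from 6.99 to 8.39 in exposed arrays; 2 of them rose, Marco (1.54, adjusted p = 0.00721) and Nr1h3 (1.09, adjusted p = 0.00409), and 1 fell, Cd209b (-0.82, adjusted p = 0.0174). Cd5l had the largest difference of that list, 1.89, and did not pass (adjusted p = 0.0693). No defining marker of either list was at or below the dim mark. The mean of 6 monocyte markers ran from 8.89 to 9.21 in naive arrays and was 9.43, 9.31, 9.12, 9.15 and 9.05 in exposed arrays 1, 2, 3, 4 and 6; 0 of the 6 passed, with a median difference of 0.13, and only Vcan was at or below the dim mark. The mean of 9 neutrophil markers ran from 4.70 to 4.84 in naive and from 4.73 to 4.96 in exposed arrays, with 8 of the 9 genes at or below the dim mark. With group means removed, the markers other than Smim5 correlated with the mean of the monocyte markers, with r from 0.56 (Pacsin1) to 0.87 (Klk1). With the set means also removed, r ran from 0.28 (Ly6d) to 0.85 (Klk1). For the red pulp macrophage markers r ran from 0.46 (Ly6d) to 0.85 (Klk1), and from 0.13 to 0.82 with the set means removed. The part of these cells in the plasmacytoid marker differences was not tested. Without exposed array 1, the array highest in both macrophage lists, Smim5 rose by 0.41 (limma adjusted p = 0.0400) and Klk1 differed by 0.57 (adjusted p = 0.561). Without exposed array 2, the next highest in both, Smim5 differed by 0.38 (limma adjusted p = 0.0898) and Klk1 by 0.58 (adjusted p = 0.636). Leaving out an array changes more than its macrophage level, so these fits do not test that part.

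Genes of the sort and of conventional dendritic cells were checked on the same arrays. Of 5 sort and dendritic cell identity genes (Itgax, H2-Aa, H2-Ab1, Flt3, Zbtb46) 0 passed, with a median difference of -0.07, and all 5 differences were below 0. Their mean was 11.77, 11.80 and 11.80 on exposed arrays 1, 2 and 3, below every naive array (11.88 to 11.98), and 11.93 and 11.95 on exposed arrays 4 and 6. The arrays lowest in these genes were thus in the number set highest in Klk1, Bst2 and Ly6d, and the part of this in the marker differences was not tested. Of 9 measured type 1 conventional dendritic cell markers 0 passed (median 0.03). Of 10 type 2 markers 2 fell, Cd209a (-1.02, limma adjusted p = 0.00345) and Clec4a4 (-0.43, adjusted p = 0.0251), with a median of -0.23. At an unadjusted limma p under 0.05 there were 6 of the 10, beside 12.2% of all genes. The Clec4a4 call was lost in 7 of 11 fits with 1 array left out (without naive array 1, 2, 4 or 6 or exposed array 2, 3 or 4; adjusted p up to 0.0631) and with the replicate number as a block (0.0504 by title, 0.0858 by the other label). Of 6 measured T cell markers 5 were at or below the dim mark.

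Among 7 measured transcription factor genes of plasmacytoid cells 0 rose and 1 fell, beside 1.42% of all genes that passed. At an unadjusted limma p under 0.05 there were 3 of the 7, Bcl11a, Irf8 and Spib, beside 12.2% of all genes. The median difference was 0.05. It includes Id2, which opposes plasmacytoid identity, so it does not give a direction of that identity. Runx2 and Zeb2 were not analysed here. Bcl11a, a zinc finger repressor needed for plasmacytoid and B cell development, fell by 0.24, from 10.56 ± 0.07 (SD, n = 6) to 10.32 ± 0.10 (SD, n = 5) (SE 0.05, limma adjusted p = 0.0452). Its naive arrays ran from 10.46 to 10.66, and its exposed arrays gave 10.20, 10.44, 10.24, 10.34 and 10.39. The call was lost in 10 of 11 fits with 1 array left out, all but that without exposed array 6, with adjusted p up to 0.112, and when its probesets were averaged (-0.18, adjusted p = 0.171). Tcf4 was level, at 8.53 ± 0.08 (SD, n = 6) and 8.51 ± 0.08 (SD, n = 5), a difference of -0.02 (95% limits -0.14 to 0.10; adjusted p = 0.944).

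Spib, an Ets factor of plasmacytoid and B cells, averaged 8.54 ± 0.27 (SD, n = 6) and 8.90 ± 0.38 (SD, n = 5), a difference of 0.37 ± 0.17 (SE; limma adjusted p = 0.389). It was lower in arrays 1 to 3 than in arrays 4 to 6. In the fit blocked by number set it rose by 0.42 (adjusted p = 0.0306). Irf8, required for both plasmacytoid and type 1 conventional dendritic cells, differed by 0.17 ± 0.06 (SE; adjusted p = 0.208); 4 of its 5 exposed arrays exceeded the highest naive array. Irf7, which drives interferon genes, differed by 0.19 (adjusted p = 0.695), the co-repressor gene Cbfa2t3 by 0.04 (adjusted p = 0.872) and the E protein inhibitor gene Id2 by 0.05 (adjusted p = 0.794).

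Genes that sense nucleic acid or carry the interferon response gave no call. Of 13 measured sensing and interferon genes 0 passed, with a median of -0.03. At an unadjusted limma p under 0.05 there were 2 of the 13, beside 12.2% of all genes. Tlr7, the endosomal receptor for single-stranded RNA, had the largest difference, -0.35 (limma adjusted p = 0.181). It also failed the test in 10 of 11 fits with 1 array left out (adjusted p up to 0.335). The exception was the fit without exposed array 1 (-0.44, adjusted p = 0.0471). Of 25 measured interferon-stimulated genes 0 passed, with a median of 0.06 and 16 above 0. At an unadjusted limma p under 0.05 there were 2 of the 25, beside the same 12.2%. Rsad2, the antiviral viperin, had the largest, 0.49 (limma adjusted p = 0.109). With 1 array left out it failed in 10 of 11 fits (adjusted p up to 0.250), all but that without exposed array 6 (0.62, adjusted p = 0.0132).

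Of 15 other measured genes of the plasmacytoid surface and programme 0 passed in limma, with a median difference of 0.0039. At an unadjusted limma p under 0.05 there were 4 of the 15, beside 12.2% of all genes. Klra17, a Ly49 family receptor gene, had the largest difference, 0.62 ± 0.18 (SE, limma adjusted p = 0.114). Its 5 exposed arrays all lay above every naive array, as was the case for 1.42% of all genes. Tyrobp, which encodes the DAP12 adaptor of Siglec-H, differed by -0.09 (adjusted p = 0.646). Of 27 measured relatives of the 9 markers 0 rose and 1 fell, Cd22 as given with the B cell genes. Mctp1, the closest relative of Mctp2, differed by -0.30 (limma adjusted p = 0.235). Among the alternative fits it passed only without exposed array 4 (-0.40, adjusted p = 0.0438). Pacsin2 (-0.08), Cox6a1 (0.10) and Atp1b3 (0.09) did not pass either.

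Of the 12602 genes above the dim mark and outside the 9, those whose array pattern was most like Siglech, by Pearson r over 11 arrays with group means removed, were Otof (0.92), Rin1 (0.91), Tgm5 (0.90), Crhr2 (0.89), Pim3 (0.89), Slc39a5 (0.86), Foxl1 (0.85) and Oprd1 (0.84). None of them passed the test between groups. Most like the mean of the 9 markers were Clec4n (0.95), Ccpg1os (0.94), B4galt5 (0.93), Gm5150 (0.93), Cd2 (0.92), Pdlim4 (0.92), BC005537 (0.91) and Syt12 (0.91). These values are the extremes of 12602 and are given as a description. Clec4n, the macrophage and dendritic cell lectin Dectin-2, differed by 1.04 (adjusted p = 0.0612), and the patterns share the number sets: its r was 0.84 with the set means removed.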

How the data were processed

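The authors deposited log2 expression values, 1 per probeset and array, made with RMA per the submitters' processing notes; its version and the genome build are not given in the sources used here. RMA corrects background, normalises between arrays and summarises probes. Of 41801 listed probesets 7329 were blank on every array and left out. The given probe table names 1 gene for 23521 probesets, several for 1814 and none for 9137; where several probesets named a gene (1082 genes), the brightest by its mean across the 11 arrays stood for it. No dim gene was removed. Array medians lay between 5.53 and 5.61, and the number of arrays limits the precision.

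Groups were compared with lmFit and trended eBayes from limma 3.58.1, run under R 4.3.3 on all 11 arrays, with Benjamini-Hochberg adjustment over 22180 genes. The fit was tested on simulated data. SE is limma's moderated standard error. Genes named are the markers, every transcription factor of the list, the members of every other list that passed or, where fewer than 2 did, had the 2 largest differences, 2 check genes per cell type, and the 8 genes most like Siglech or the markers' mean; of these, only genes that bear on a marker's result are printed. Tyrobp, Cd5l and the relatives Pacsin2, Cox6a1, Atp1b3 and Mctp1 lie outside the rule and were chosen after their values were seen. So were Tspan13 and Oas2, which are named because they passed in an alternative fit. The markers and lists were chosen with earlier results of these data known. Of the listed genes, 17 had no probeset that names them alone and were not analysed here.

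The last exposed array is numbered 6 by its title but 5 by its replicate label. Correlations of same-numbered naive and exposed arrays ran from 0.088 to 0.231 with group means removed, and not every pair passed 0.1. The numbers were therefore not used as pairs in the main fit. These correlations cannot exclude a pairing. The alternatives were other limma settings, normalisations and filters, the number set, the replicate number as a block, and each array left out. Promoter sequences are from RefSeq; a protein sequence was not used here.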

Additional observations from a re-analysis of the deposited data

Results flagged for a closer look

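In 32 groups of arrays (the 9 markers and 7 transcription factors, naive and exposed), the extreme array was set against the others with Dixon's 95% criterion, which chance meets in about 1 of 20 groups. It was met 2 times. Ly6d on naive array 2 (8.23) lay above the other naive arrays by 0.632 of the group's range; without it the difference of Ly6d was 0.53 (adjusted p = 0.205). Id2 on naive array 3 (11.98) lay below the other naive arrays by 0.651 of the range.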

How the results depend on the processing

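The median difference of the markers (0.21) was above 0 under all 25 alternatives, but ran from 0.081 (without exposed array 2) to 0.31 with 1 array left out, and was 0.34 in arrays 1 to 3 alone and 0.033 in arrays 4 to 6 alone. The direction of single markers turned within number sets: Siglech to 0.085 in arrays 1 to 3 alone, Pacsin1 to -0.044 and Mctp2 to -0.20 in arrays 4 to 6 alone. The count of markers that passed was 0 in arrays 1 to 3 alone and in arrays 4 to 6 alone, where fewer arrays were fitted, and 0 to 1 with 1 array left out. Whether the numbers pair the arrays was not settled. For 2 of 5 exposed arrays the best-correlated naive array had the same number. With the title number as a replicate block, which leaves naive array 5 without a partner, 0 markers passed (Smim5 0.34, limma adjusted p = 0.0617). With the other field's number, which leaves naive array 6 without a partner, 1 passed (Smim5 0.42, limma adjusted p = 0.0375). For the transcription factors the count was 0 without trend, with median centring, with the mean of a gene's probesets, with the other field's replicate block and in either number set alone, 2 with the number set as a block (Spib added), and 0 to 1 with 1 array left out. For the markers' relatives it was 0 in arrays 4 to 6 alone and 0 to 2 with 1 array left out. The surface list gave 1 with quantile normalisation repeated, with dim genes removed and with number sets blocked (Tspan13), and 1 with the title number's replicate block (Klra17 0.64, adjusted p = 0.0460). That block gave 1 interferon-stimulated gene (Oas2 -0.31, adjusted p = 0.0314), and leaving out 1 array gave 0 to 1 there and among the sensing genes. Apart from the smaller sets of arrays, the cause was not tested. With dim genes removed, Mctp2 was not tested. The count over all genes was 316, and ran from 104 without exposed array 2 to 617 with the number set as a block, among fits that kept both number sets; dim genes removed gave 461. Signal limits Mctp2 and Smim5, which were at or near the dim mark.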

Other observations

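Of all genes in the deposited values 23.3% (5161) had exactly the same value on 3 or more of the 11 arrays, to the decimals deposited, and 3 of the 9 markers were among them: Siglech, Pacsin1 and Cox6a2. Siglech was listed at 7.0995 on naive arrays 1 and 4 and exposed array 2. The other 6 markers had no value on more than 2 arrays.

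Among lymphocyte lists not described above, 1 of 7 natural killer cell markers rose (Ncr1, 0.46, limma adjusted p = 0.0289). The Ncr1 call was lost in 8 of 11 fits with 1 array left out, all but those without naive array 2 or exposed array 1 or 4. The median difference of the 7 was 0.25, beside 0.21 for the plasmacytoid markers. At an unadjusted limma p under 0.05 there were 4 of the 7, beside 12.2% of all genes, and 3 of the 7 were at or below the dim mark. Of 7 plasma cell markers 0 passed in limma and 2 had an unadjusted p under 0.05; Jchain, the joining chain of secreted antibody, differed by 0.67 (adjusted p = 0.389).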
